A study of Mus musculus with 2 samples.

Results

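The replication-dependent histone genes were taken as every gene whose symbol begins with Hist1h, Hist2h, Hist3h or Hist4h in the deposited gene list. There were 67 of them among 32285 listed genes. By protein class, 6 encode the linker histone H1, 18 encode H2A, 18 encode H2B, 12 encode H3 and 13 encode H4. They were followed in 2 single-cell libraries of tumour-infiltrating lymphocytes, 1 from mice given mSTAR1302 and 1 from mice given vehicle. Both libraries came from BALB/c mice of 4 to 6 weeks that carried subcutaneous tumours of EMT6, a mouse mammary carcinoma line grown in this strain. Mice entered their group when tumours measured 80 to 150 mm3, and mSTAR1302 antibodies went into the peritoneum at weekly intervals for 2 cycles. The labels do not give the targets of mSTAR1302, the number of mice in a library or whether mice were pooled. In both groups CD4+ and CD8+ cells were pulled from digested tumour with magnetic beads and kept in medium with 5% serum, and 10x Genomics 3' gene expression libraries were made.

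These genes supply the bulk of the histones that package newly copied DNA, so a dividing cell switches them on when it enters S phase and stops them when copying ends. Each nucleosome holds H2A, H2B, H3 and H4, and H1 binds the DNA between nucleosomes. Their mRNAs are unusual in that most end in a short stem-loop, bound by the protein Slbp, and carry no poly(A) tail. Some members can also be read through to a later poly(A) site, which is known from cells that have left the cycle. A 3' library primed with oligo-dT copies poly(A), from a tail or from a run of A inside the transcript, so the level of a histone gene in such data reflects both how much mRNA is present and how well it can be primed. In T cells, replication-dependent histone mRNA is known to accompany clonal expansion.

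The genes lie in 4 clusters, with positions given on GRCm38, the assembly also called mm10, from GENCODE M21. The large Hist1 cluster held 54 members at chr13:21715763-23934851. The Hist2 cluster held 10 members at chr3:96219865-96270132, the Hist3 cluster 2 members at chr11:58948920-58956830, and Hist4h4 stood alone at chr6:136801553-136804415. All members share a source in each library, and several are near copies. Of the 30-base words of the Hist1h2ap transcripts, 93.4% also occurred in Hist1h2ao, and 89.6% of those of Hist2h2aa1 occurred in Hist2h2aa2. Hist1h2br shared 99.8% with Hist1h2bq, and Hist1h4n shared 85.5% with Hist1h4m. Every 30-base word in the last 400 bases of Hist1h1e also occurred in the annotation of Hist1h2be. Reads that match more than a single copy cannot be placed by sequence alone, so the levels of these genes are uncertain as levels of a single gene. How the authors' counting treated such reads was not tested.

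The ends of the transcripts are shown first because they bear on which members this assay can count. The histone stem-loop was searched on the transcript's own strand as 16 letters, namely GG, 2 free letters, CTTTT, a free letter, AG, 2 free letters and CC. It was found in the annotated transcript of 44 of 67 members. A member whose annotated transcript stops before the loop gives no match, so the other 23 are not shown to lack it. The windows below run 5′ to 3′ and end at the last base of the loop, with the stem-loop in capitals. Hist1h2ap, its near copy Hist1h2ao, Hist1h2ae and Hist1h3c are shown because a long run of A precedes the loop. Hist1h1c, Hist1h1e, Hist1h4d and Hist1h2ab are shown as named members with shorter runs.
Hist1h2ap, chr13:21833029-21833058, minus strand: agaaaaaaaaaaaaGGCTCTTTTCAGAGCC
Hist1h2ao, chr13:21810884-21810913, plus strand: agaaaaaaaaaaaaGGCTCTTTTCAGAGCC
Hist1h2ae, chr13:23570668-23570697, minus strand: gtaaaaaaaacaaaGGCTCTTTTCAGAGCC
Hist1h3c, chr13:23745047-23745076, minus strand: gctatttaaaaaaaGGCTCTTTTAAGAGCC
Hist1h1c, chr13:23739498-23739527, plus strand: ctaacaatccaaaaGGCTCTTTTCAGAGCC
Hist1h1e, chr13:23621782-23621811, minus strand: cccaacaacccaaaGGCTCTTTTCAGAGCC
Hist1h4d, chr13:23581936-23581965, plus strand: acccaaaaaccaaaGGCCCTTTTCAGGGCC
Hist1h2ab, chr13:23751558-23751587, plus strand: ttaaccaaaacaaaGGCTCTTTTCAGAGCC

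The libraries held 9155 cells for mSTAR1302 and 7615 for vehicle, of which 8718 and 6729 were T cells by at least 2 UMIs of Cd3d, Cd3e and Cd3g. A UMI is a molecular tag that counts 1 captured mRNA. T cells were gated as CD8, CD4 without a Foxp3 UMI or CD4 with a Foxp3 UMI, Foxp3 being the defining factor of regulatory T cells. A cell was called cycling with at least 3 UMIs of Mki67, Top2a and Birc5, genes of the dividing cell that are no members. The cycling CD8 gate held 776 mSTAR1302 cells with a median of 11168 UMIs and 356 vehicle cells with a median of 16436 UMIs. The cycling CD4 gate without Foxp3 held 57 and 45 cells, and that with Foxp3 held 32 and 370 cells. In the cycling CD8 gate, all 8 listed T cell markers were found in both libraries, at a summed 5703 counts per 1000000 UMIs (CPM) for mSTAR1302 and 4923 CPM for vehicle. The libraries shared 17 cell barcodes. With 1 library for each treatment there is no replicate check and no test of treatment, and each interval is an exact 95% interval that covers counting error only.

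Cycling cells carried far more replication-dependent histone mRNA than non-cycling cells of the same gate. Summed over the 67 members, cycling CD8 cells had 17.9 times the level of non-cycling CD8 cells in the mSTAR1302 library (17.6 to 18.2) and 9.64 times in the vehicle library (9.42 to 9.86). Among CD4 cells the ratio was 14.9 for mSTAR1302 and 11.6 for vehicle where Foxp3 was absent, and 13.4 for mSTAR1302 and 14.6 for vehicle where it was present. A gene counts as called here when it is at least 2-fold apart on the log2(CPM + 1) scale and averages 10 CPM over both sides. In mSTAR1302 CD8 cells 29 of 30 members were higher in cycling cells, against 5.36% of all genes, and in vehicle CD8 cells 23 of 25 were, against 7.05% of all genes. Among CD4 cells without Foxp3, 28 of 28 members were higher for mSTAR1302 (6.33% of all genes) and 27 of 30 for vehicle (8.35%). Among CD4 cells with Foxp3, 30 of 33 were higher for mSTAR1302 (11.6% of all genes) and 29 of 31 for vehicle (5.64%). In 5 of the 6 gate and library pairs 0 members were called lower in cycling cells, where the shares of all genes called lower were 0.275% and 0.334% in CD8 cells for mSTAR1302 and vehicle, 7.74% and 1.92% in CD4 cells with Foxp3, and 1.81% in the mSTAR1302 cells of the other CD4 gate. In the sixth, the H2B gene Hist1h2bc, named after its value was seen, was lower in cycling vehicle CD4 cells without Foxp3, at 8.46 CPM from 4 UMIs against 20.3 CPM in non-cycling ones, where 3.4% of all genes were called lower. The mean filter lets a member pass through its cycling level alone, so these counts describe the members that could be measured, not all 67.

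The members differed widely in how tightly they followed the cycling gate. Hist1h1b, a linker histone gene, was 55.2 times higher in cycling than in non-cycling CD8 cells for mSTAR1302 and 40.5 times for vehicle. Hist1h3c, an H3 gene, was 72.8 and 41.5 times higher, and the H2A gene Hist1h2ap 43.0 and 27.0 times. The non-cycling levels of these 3 genes cannot be told apart from free RNA by the limit worked out for non-cycling cells, so the ratios rest on denominators that may be background. At the other end stood Hist1h1c, another linker histone gene, at 1.86 times for mSTAR1302 (1.74 to 1.98) and 1.304 times for vehicle (1.201 to 1.416). The H2A gene Hist3h2a was level within counting error, at 0.878 times (0.625 to 1.21) and 1.15 times (0.767 to 1.70). Hist1h1e and the H4 gene Hist1h4d lay between, at 6.96 and 7.13 times for mSTAR1302 and 5.38 and 4.46 times for vehicle. For scale, H2afz, which encodes a replacement H2A made through the whole cycle, was 3.27 and 2.53 times higher in cycling CD8 cells.

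**Figure D1:**
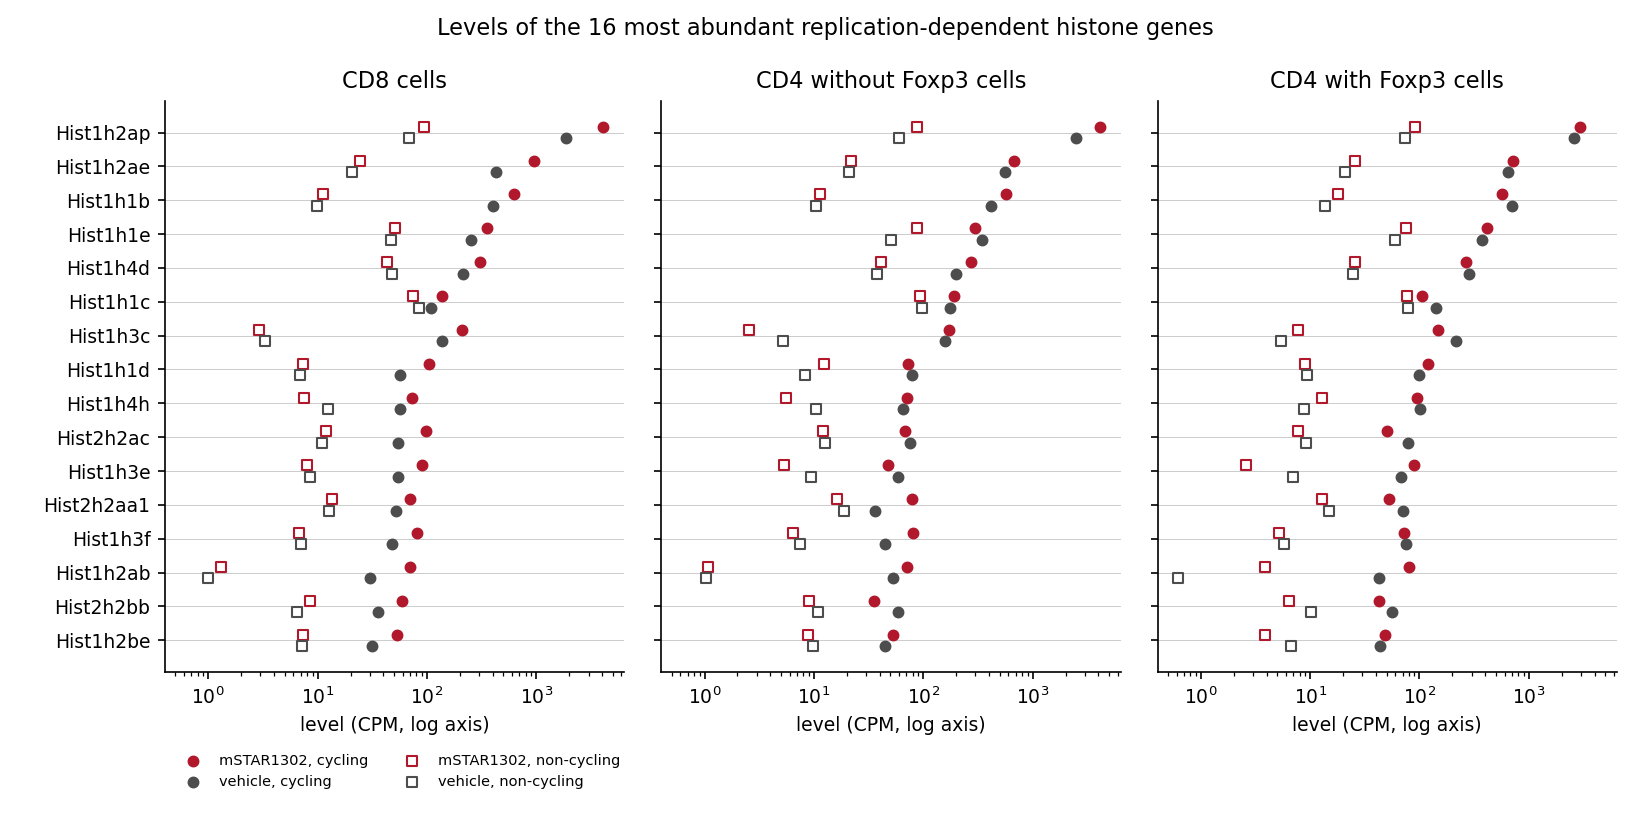
Level of the named histone genes in CPM (log axis) in each gate, with mSTAR1302 in red and vehicle in grey, filled circles for cycling cells and open squares for non-cycling cells. Hist1h2ap lay highest in cycling CD8 cells at 4038 CPM for mSTAR1302 and 1848 CPM for vehicle, and Hist1h1c lay closest between cycling and non-cycling CD8 cells, at 1.86-fold and 1.304-fold.

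In cycling CD8 cells the summed histone level was 7990.4 CPM for mSTAR1302 (7936 to 8046) and 4249 CPM for vehicle (4204 to 4295), a ratio of 1.88 (1.86 to 1.90). Of the 37 members that averaged 10 CPM, all 37 lay above a log2 ratio of 0, between 0.03 and 1.48, with a median of 0.66, while the median of all genes was -0.10. At least 2-fold higher were 5 of the 37, against 1.26% of all genes, and 0 of the 37 were lower, against 5.8% of all genes. Those 5 were the H2A genes Hist1h2ap, Hist1h2ae, Hist1h2ab and Hist1h2ai and the H2B gene Hist1h2bn. The size changed with the depth used. In cells cut at random to 3000 UMIs each and gated anew, the level was 11369 CPM in 480 mSTAR1302 cells and 8795 CPM in 156 vehicle cells, a ratio of 1.29 (1.25 to 1.34). Then 2 of 43 members were at least 2-fold higher, Hist1h2an and Hist1h2ac, against 3.12% of all genes at that depth. None of the 43 was called lower, against 7.57% of all genes, and 29 of 43 lay above 0 with a median of 0.13 against -0.12 for all genes.

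Markers of most other listed cell types were lower for mSTAR1302 in this gate. In the same cycling CD8 gate, summed macrophage markers were at 103 CPM for mSTAR1302 and 1103 CPM for vehicle, with 10 of 10 found in each. Tumour markers were at 12.2 and 188 CPM, with 5 of 6 found in each, fibroblast markers at 36.5 and 401 CPM, and NK cell markers at 42.7 and 221 CPM. Dendritic cell markers were at 125 and 169 CPM and neutrophil markers at 1.37 and 7.60 CPM. B cell markers, at 17.7 and 13.5 CPM, and endothelial markers, at 24.9 and 14.4 CPM, went the other way. Cells with at least 5 UMIs over the macrophage, tumour and fibroblast lists numbered 3 (0.387%) for mSTAR1302 and 29 (8.15%) for vehicle. The 29 vehicle cells had a median of 40915 UMIs, held 23.7% of all UMIs of their gate and had a histone level of 1938 CPM. Without such cells, a setting added after the data were seen, the level was 8035 CPM for mSTAR1302 and 4966 CPM for vehicle, a log2 ratio of 0.69. Hist1h2ai was then the only member at least 2-fold higher of 37, against 0.925% of all genes, and 36 of 37 lay above 0 with a median of 0.48 against -0.0754 for all genes.

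**Figure D2:**
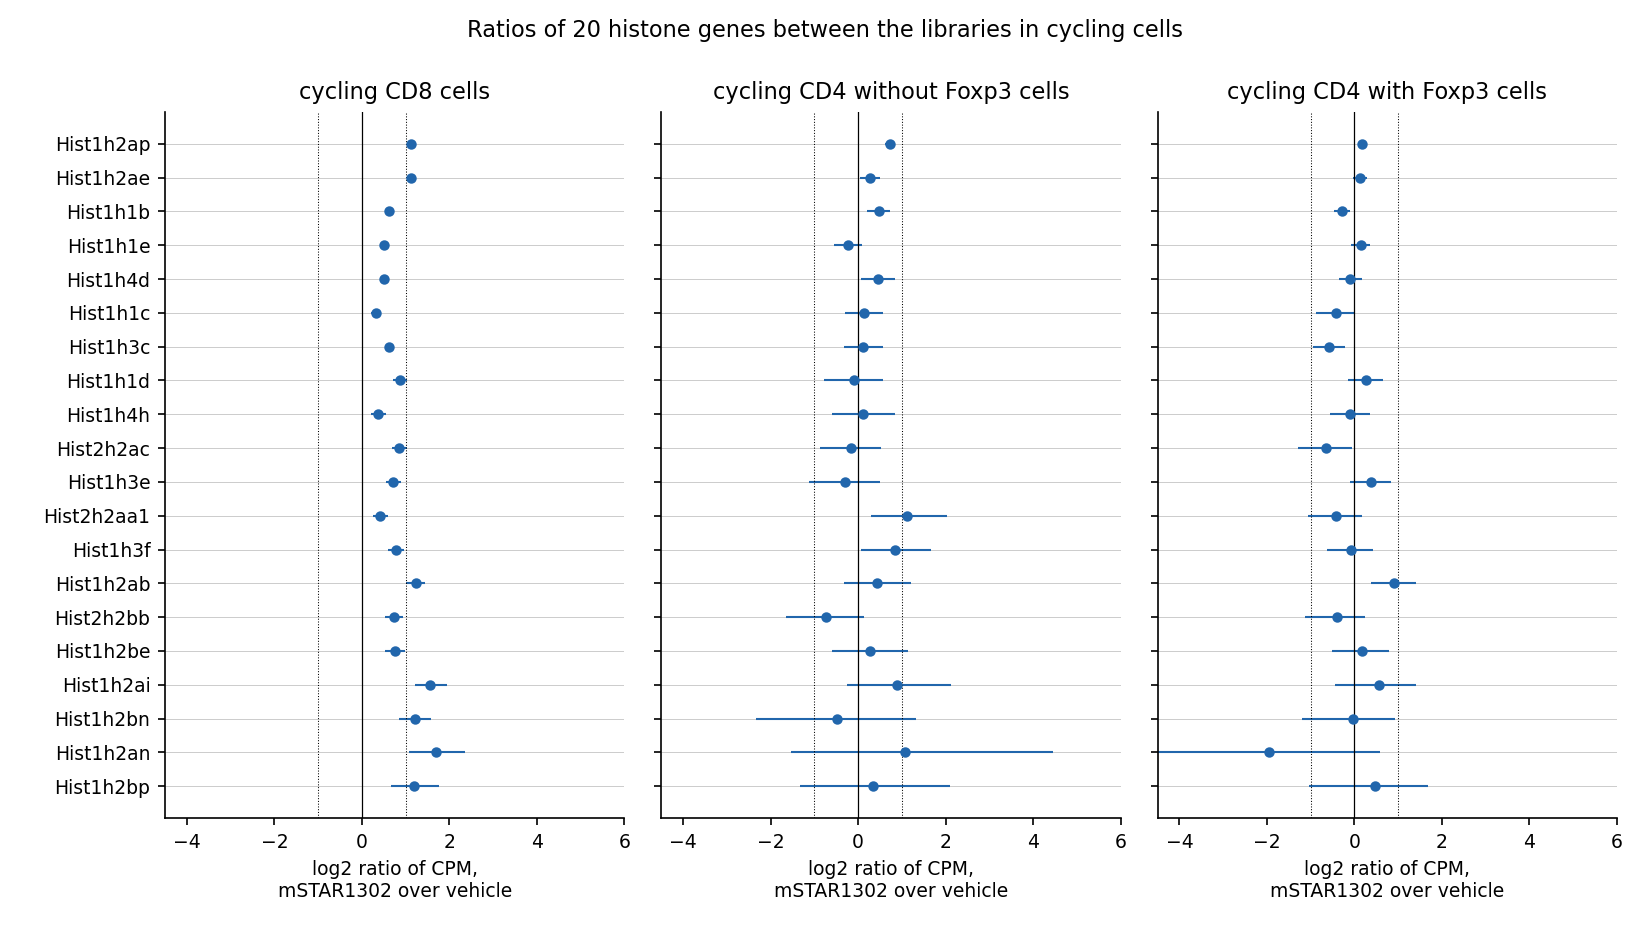
The log2 ratio of mSTAR1302 over vehicle CPM for the named histone genes in each gate, with 95% counting intervals as bars and dotted lines at a 2-fold difference. In cycling CD8 cells the points run from 1.25-fold for Hist1h1c to 2.96-fold for Hist1h2ai among members of 10 CPM or more, and in cycling CD4 cells with Foxp3 they lie on both sides of 0, with wide bars from 32 mSTAR1302 cells.

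H2A genes held most of the histone UMIs and most of the difference. As a class, H2A was at 5353 CPM in mSTAR1302 and 2494 CPM in vehicle cycling CD8 cells, a ratio of 2.15 (2.11 to 2.18). Hist1h2ap alone had 41126 UMIs or 4038 CPM for mSTAR1302 and 14340 UMIs or 1848 CPM for vehicle, a ratio of 2.19 (2.14 to 2.23). It made up 50.5% of histone UMIs for mSTAR1302 and 43.5% for vehicle, and without it the summed ratio was 1.65. Hist1h2ae had 942 CPM for mSTAR1302 and 432 CPM for vehicle, a ratio of 2.18 (2.10 to 2.27). Hist1h2ab, at 70.5 and 30.2 CPM, had a ratio of 2.34 (2.01 to 2.72). Hist1h2ai, with 303 UMIs or 29.8 CPM for mSTAR1302 and 78 UMIs or 10.1 CPM for vehicle, had the highest ratio of the 37, at 2.96 (2.30 to 3.85). In thinned cells the ratio was 1.48 for Hist1h2ap (1.41 to 1.56), 1.45 for Hist1h2ae and 1.67 for Hist1h2ab, so these 3 stayed above 1 and below 2. Not every H2A gene was as far apart: Hist2h2ac had 98.9 CPM for mSTAR1302 and 54.6 CPM for vehicle, and Hist2h2aa1 had 70.0 and 52.3 CPM.

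The other classes differed less between the libraries. Linker histone genes summed to 1244 CPM in mSTAR1302 and 839 CPM in vehicle cycling CD8 cells, a ratio of 1.48 (1.44 to 1.53). Within them Hist1h1b had 619 and 400.01 CPM, Hist1h1e 355 and 250.1 CPM, and Hist1h1d 103 and 57.0 CPM. Hist1h1c, at 137 and 109.9 CPM, had the smallest ratio of the named members, 1.25 (1.15 to 1.36). In the thinned and regated cells the ratio was 1.08 for Hist1h1b (0.964 to 1.21), 1.01 for Hist1h1e and 0.842 for Hist1h1c.

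H3 genes summed to 519.8 CPM for mSTAR1302 and 329.9 CPM for vehicle, a ratio of 1.58 (1.503 to 1.65), with Hist1h3c at 211 and 137 CPM, Hist1h3e at 89.8 and 54.6 CPM and Hist1h3f at 81.6 and 47.7 CPM. H4 genes summed to 465 and 335 CPM, a ratio of 1.39 (1.33 to 1.46). Hist1h4d had 305 CPM for mSTAR1302 and 214 CPM for vehicle, and Hist1h4h had 73.4 and 56.8 CPM, a log2 ratio of 0.36 that turned to -0.39 in thinned cells. H2B genes summed to 408 and 252 CPM, a ratio of 1.62 (1.53 to 1.71). Hist2h2bb had 59.2 CPM for mSTAR1302 and 35.6 CPM for vehicle, Hist1h2be had 52.8 and 31.3 CPM, and Hist1h2bn had 26.2 and 11.3 CPM. Hist1h2an, an H2A gene, and Hist1h2bp, an H2B gene, were also over 2-fold apart but averaged under 10 CPM. They stood at 11.3 and 11.5 CPM for mSTAR1302 and at 3.48 and 5.03 CPM for vehicle. At the low end, Hist1h2bq, Hist1h1t, Hist1h2ba and Hist1h2aa had no UMI in any kept cell of either library.

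Single cells varied widely within the cycling CD8 gate, and the cells with markers of other types were kept for these values. Per cell, the histone level in CPM had a median of 4004 in mSTAR1302 cycling CD8 cells, with quartiles of 629 and 13976, and a median of 739 in vehicle cells, with quartiles of 328 and 5708. Histone genes took at least 1% of a cell's UMIs in 263 mSTAR1302 cells, or 33.9% (30.6 to 37.3%), and in 59 vehicle cells, or 16.6% (12.9 to 20.9%). The 10% of cells highest in this measure held 40.9% of histone UMIs for mSTAR1302 and 54.0% for vehicle. When cells already gated were thinned to 3000 UMIs, the median cycling CD8 cell had 11 histone UMIs for mSTAR1302 and 2 for vehicle. Hist1h2ap was found in 83.5% of mSTAR1302 and 68.5% of vehicle cycling CD8 cells, and in 69.9% and 46.0% of them after that thinning. In non-cycling CD8 cells Hist1h2ap was found in 37.6% and 37.9% unthinned, at median depths of 6149.5 and 9389 UMIs, and in 21.8% and 15.8% after thinning. No gate here is known to lack histone mRNA, so these shares have no background set by a negative cell type.

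**Figure D3:**
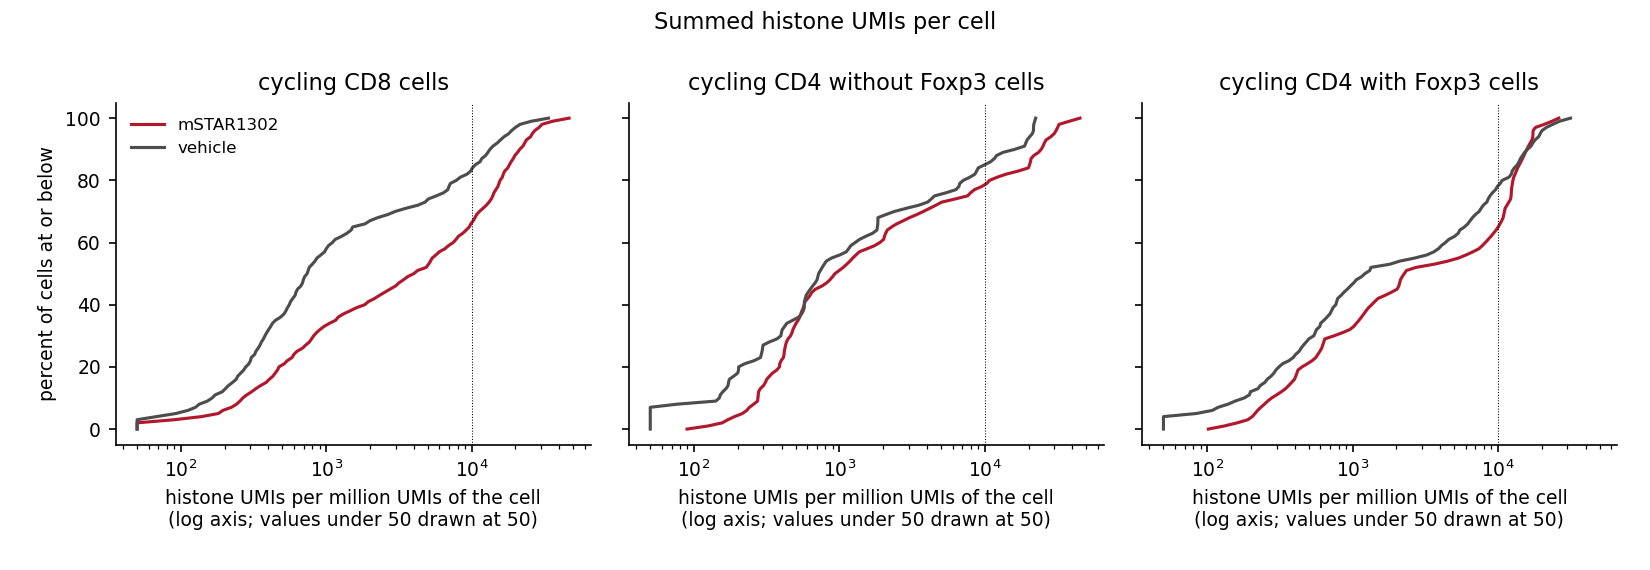
Cumulative percent of cells (vertical axis) against histone UMIs scaled to 1000000 UMIs of the cell (horizontal log axis) for cycling cells of each gate, mSTAR1302 in red and vehicle in grey, with a dotted line where histone genes take 1% of a cell. In CD8 cells the mSTAR1302 line runs to the right of the vehicle line, with 33.9% and 16.6% of cells past 1%.

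The share of a cell's cycle genes that belong to S phase placed histone mRNA in the middle of the range. Cycling cells with at least 5 UMIs over an S phase list and a mitosis list were split at an S phase share of 33.3% and 66.7%. In CD8 cells rich in S phase genes, the summed histone level was 3657 CPM in 328 mSTAR1302 cells and 2009 CPM in 171 vehicle cells, a ratio of 1.82 (1.77 to 1.87). In the middle bin it was 12256 CPM in 298 mSTAR1302 cells and 7089 CPM in 120 vehicle cells, a ratio of 1.73 (1.70 to 1.76). In the bin rich in mitosis genes it was 9279 CPM in 125 mSTAR1302 cells and 6077 CPM in 47 vehicle cells, a ratio of 1.53 (1.49 to 1.57). The mSTAR1302 level was higher in each of the 3 bins, and the median S phase share was 63.3% for mSTAR1302 and 67.2% for vehicle. Across the S phase, middle and mitosis bins, median UMIs of a cell were 11285.5, 12388 and 9966 for mSTAR1302. For vehicle they were 17862, 15515.5 and 19852. The bins were not thinned and kept cells with markers of other types, and the part of depth in these ratios was not tested. Of the 20 named members, 15 were highest in the middle bin for mSTAR1302 and 17 for vehicle, and all 20 were higher in the mitosis bin than in the S phase bin in both libraries. Hist1h2ap had 1805, 6313 and 4512 CPM across the S phase, middle and mitosis bins for mSTAR1302, and 874, 3083 and 2654 CPM for vehicle. Hist1h1c had 80.0, 179 and 188 CPM for mSTAR1302 and 67.9, 147 and 165 CPM for vehicle, so it was highest in the mitosis bin in both, by a small margin. Its middle and mitosis bins rest on 746 and 294 UMIs for mSTAR1302 and on 340 and 237 UMIs for vehicle. No intervals are given for single members by bin, nor for the counts of members by bin. Slbp, which binds the histone stem-loop, was lowest in the mitosis bin, with 173, 183 and 87.6 CPM for mSTAR1302 and 148, 162 and 64.7 CPM for vehicle.

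**Figure D4:**
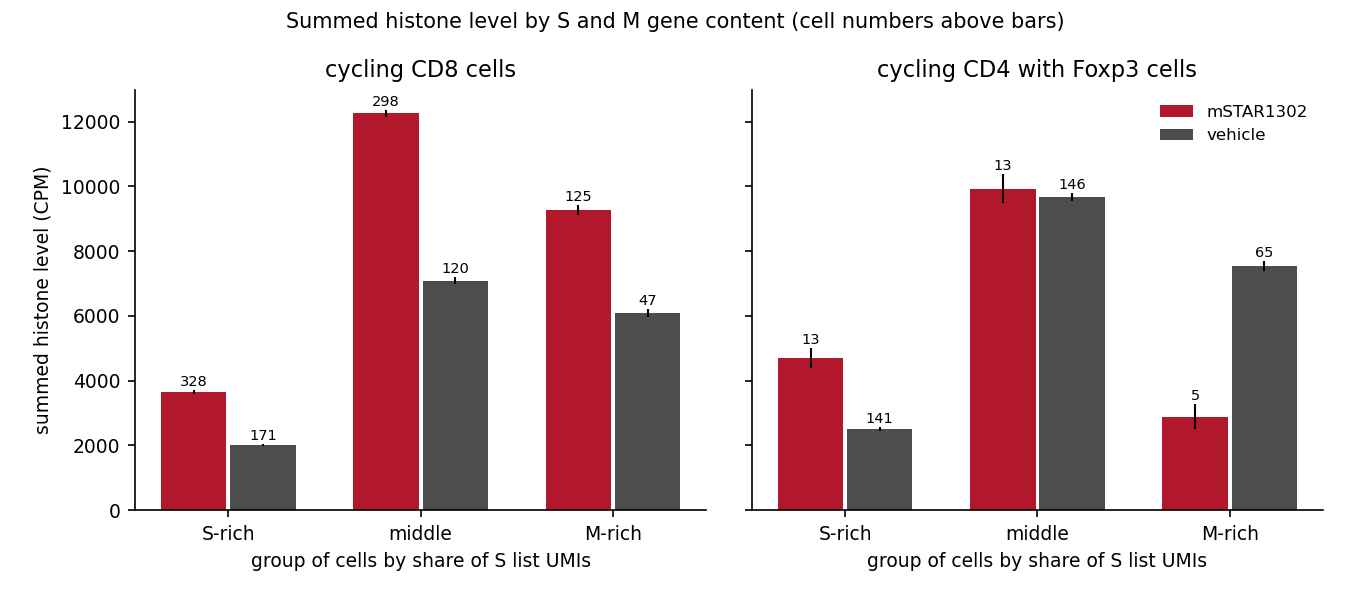
Summed histone level in CPM (vertical axis, from 0) of cycling cells binned by the S phase share of their cycle UMIs. Panels show CD8 cells and CD4 cells with Foxp3, and CD4 cells without Foxp3 are not drawn. Bars are red for mSTAR1302 and grey for vehicle, with 95% Poisson intervals and the number of cells above each bar. In CD8 cells the middle bin is the tallest in both libraries, at 12256 and 7089 CPM. The mitosis bin of mSTAR1302 CD4 cells with Foxp3 rests on 5 cells.

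In cycling CD4 cells without Foxp3, histone mRNA summed to 7516 CPM for mSTAR1302 and 5464 CPM for vehicle, a ratio of 1.38 (1.31 to 1.45). H2A genes had a ratio of 1.56 (1.46 to 1.66), and the ratio of linker histone genes was 1.10 (0.981 to 1.24). Hist1h2ap stood at 4122 CPM for mSTAR1302 and 2497 CPM for vehicle, and Hist1h1e at 295 and 345 CPM. At least 2-fold higher were 4 of 40 members, against 2.95% of all genes, and 0 were lower, against 14.6% of all genes. They were the H2A gene Hist2h2aa1 with 44 UMIs for mSTAR1302 and 17 for vehicle, and the H2B genes Hist1h2bc with 27 and 4, Hist3h2ba with 16 and 6 and Hist1h2bl with 9 and 3. These H2B genes were named after their values were seen. Of the 40, 23 lay above 0, and the median log2 ratio was 0.12 against -0.25 for all genes. Macrophage markers in this gate summed to 12.4 CPM for mSTAR1302 and 2738 CPM for vehicle, and the log2 ratio of the summed level was 0.46 as given and 0.0498 without the cells of highest UMI count in each library, which left 53 and 44 cells. Cells with at least 5 UMIs of macrophage, tumour and fibroblast markers numbered 0 for mSTAR1302 and 1 for vehicle. Without that cell the level was 7516 CPM for mSTAR1302 and 5378 CPM for vehicle, a log2 ratio of 0.48, and again 4 of 40 members were higher and 23 lay above 0. In the S phase bin the direction was the other way, with 4298 CPM in 17 mSTAR1302 cells and 5945 CPM in 18 vehicle cells, a ratio of 0.723 (0.661 to 0.791). The middle bin had 13700.0 CPM in 17 mSTAR1302 cells and 6673 CPM in 11 vehicle cells, a ratio of 2.05, and the mitosis bin 7069.8 CPM in 15 and 4645 CPM in 9 cells, a ratio of 1.52.

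In cycling CD4 cells with Foxp3, the summed level was 6396 CPM for mSTAR1302 and 6276 CPM for vehicle, a ratio of 1.02 (0.982 to 1.06). At least 2-fold higher were 2 of 42 members, against 1.74% of all genes, and 0 were lower, against 4.68% of all genes. Those 2, named after their values were seen, were the H4 gene Hist1h4c with 9 UMIs in 32 mSTAR1302 cells and 56 UMIs in 370 vehicle cells, and the H2A gene Hist1h2ac with 7 and 40 UMIs. Only 18 of the 42 lay above 0, and their median was -0.08 beside -0.09 for all genes. Hist1h2ap stood at 2923 CPM for mSTAR1302 and 2610 CPM for vehicle, a ratio of 1.12 (1.06 to 1.18). Hist1h3c was at 146 and 217 CPM, a ratio of 0.674 (0.521 to 0.858), and Hist1h1b at 569.7 and 694 CPM, a ratio of 0.821 (0.723 to 0.929). Histone genes took at least 1% of UMIs in 11 of the mSTAR1302 cells, or 34.4% (18.6 to 53.2%), and in 81 of the vehicle cells, or 21.9% (17.8 to 26.5%). These intervals overlap. Across the S phase, middle and mitosis bins the level was 4699.7, 9924 and 2865 CPM for mSTAR1302, the last from 5 cells, and 2494, 9673 and 7546 CPM for vehicle. Macrophage markers summed to 10.6 CPM for mSTAR1302 and 83.4 CPM for vehicle in this gate, and leaving out the 18 vehicle cells with markers of other cells gave a log2 ratio of 0.00403.

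At full depth, non-cycling cells had similar summed levels in both libraries. In CD8 cells they were 447 CPM in 5514 mSTAR1302 cells and 441 CPM in 2104 vehicle cells, a ratio of 1.01 (0.989 to 1.04). In CD4 cells without Foxp3 they were 506 and 469 CPM, a ratio of 1.08 (1.01 to 1.15), and in CD4 cells with Foxp3 477 and 430.1 CPM, a ratio of 1.11 (0.993 to 1.23). In these gates 9, 10 and 9 members averaged 10 CPM, and 0 of them were 2-fold apart in either direction. In that order of gates, the shares of all genes called higher were 0.865%, 0.721% and 0.701%, and those called lower were 3.72%, 5.38% and 4.15%. The median log2 ratios of all genes were -0.15, -0.22 and -0.14. By class, H2A genes were 1.26 times the vehicle level in non-cycling CD8 cells (1.21 to 1.32), H2B genes 0.869 times (0.804 to 0.9397) and H4 genes 0.839 times (0.791 to 0.890). Hist1h2ap had 94.0 CPM for mSTAR1302 and 68.5 CPM for vehicle, and Hist1h2bc had 9.30 and 17.2 CPM, a ratio of 0.541 (0.466 to 0.628). Macrophage markers in this gate were at 87.0 CPM for mSTAR1302 and 876 CPM for vehicle, and their part in these ratios was not tested.

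The make-up of histone mRNA in cycling CD8 cells was unlike that of non-cycling ones in both libraries. Hist1h2ap made up 50.5% of histone UMIs for mSTAR1302 and 43.5% for vehicle in cycling CD8 cells, against 21.01% and 15.5% in non-cycling ones. Hist1h1c made up 1.72% and 2.59% of histone UMIs in cycling cells, against 16.6% and 19.1% in non-cycling ones. Linker histone genes together held 15.6% and 19.7% in cycling cells, against 32.5% and 33.8% in non-cycling ones. H4 genes held 5.82% and 7.87% in cycling cells, against 16.4% and 19.9%. Free RNA can carry histone UMIs into any droplet, since droplets of 10 to 100 UMIs held histone mRNA at 1831 CPM for mSTAR1302 and 1569 CPM for vehicle. Were all Hist1h2ap in non-cycling CD8 cells free RNA, that RNA would be at most 10.6% of their UMIs for mSTAR1302 and 9.29% for vehicle. At that limit it would give Hist1h1c 9.49 CPM of the 74.1 CPM measured for mSTAR1302 and 7.97 CPM of the 84.3 CPM for vehicle. It would give Hist1h1e 9.02 of 51.0 CPM and 6.81 of 46.5 CPM, and Hist1h4d 12.3 of 42.8 CPM and 4.30 of 48.1 CPM. For Hist1h1b the limit, 12.3 and 8.49 CPM, was as large as the level of 11.2 and 9.87 CPM or nearly so. For Hist1h3c it was 2.85 of 2.90 CPM for mSTAR1302 and 3.98 CPM against a level of 3.30 CPM for vehicle. By this limit alone, the non-cycling levels of Hist1h1b, Hist1h3c and, by the way the limit is set, Hist1h2ap can thus not be told apart from free RNA. The non-cycling gate also takes cells with fewer than 3 UMIs of Mki67, Top2a and Birc5. Its highest CD8 cell had a histone level of 12185 CPM for mSTAR1302 and 31053 CPM for vehicle. The part of such cells in these levels was not tested.

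The transcript ends shown at the start differed between the members that stood high. Among the 44 members with a stem-loop, 4 had a run of at least 7 A in the 30 bases before it, a length chosen with the levels known. Hist1h2ap and Hist1h2ao had 12, Hist1h2ae had 8 and Hist1h3c had 7. These 4 held 65.0% of the histone level in mSTAR1302 cycling CD8 cells and 56.9% in vehicle ones, and 27.1% and 20.9% in non-cycling CD8 cells. The other 40 had a median of 12.3 CPM for mSTAR1302 and 8.25 CPM for vehicle in cycling CD8 cells. The 23 members without a stem-loop match, Hist1h1b among them, held 12.7% and 15.2% of the level there. Runs of A elsewhere in the transcripts are not given here. Hist1h2ao was at 0.589 and 0.902 CPM. Only 7.55% of the 30-base words in its last 400 bases, and 0% of those of Hist1h2ap, were found in no other annotated gene. Words of that length thus hardly tell the ends of these genes from those of other genes, and longer stretches were not compared. The deposited counts still gave Hist1h2ap 41126 and 14340 UMIs in mSTAR1302 and vehicle cycling CD8 cells, and Hist1h2ao 6 and 7. How the counting placed reads between these copies was not tested. Annotated sequence after the stem-loop also differed, from 3 bases in Hist1h2ap to 840 in Hist1h1c and 1153 in Hist1h1e. The 22 members with at least 100 bases after the loop held 27.3% and 30.0% of the histone level in cycling CD8 cells, and 56.5% and 59.7% in non-cycling ones. All members share the same 2 libraries, so these shares describe the libraries and carry no test.

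**Figure D5:**
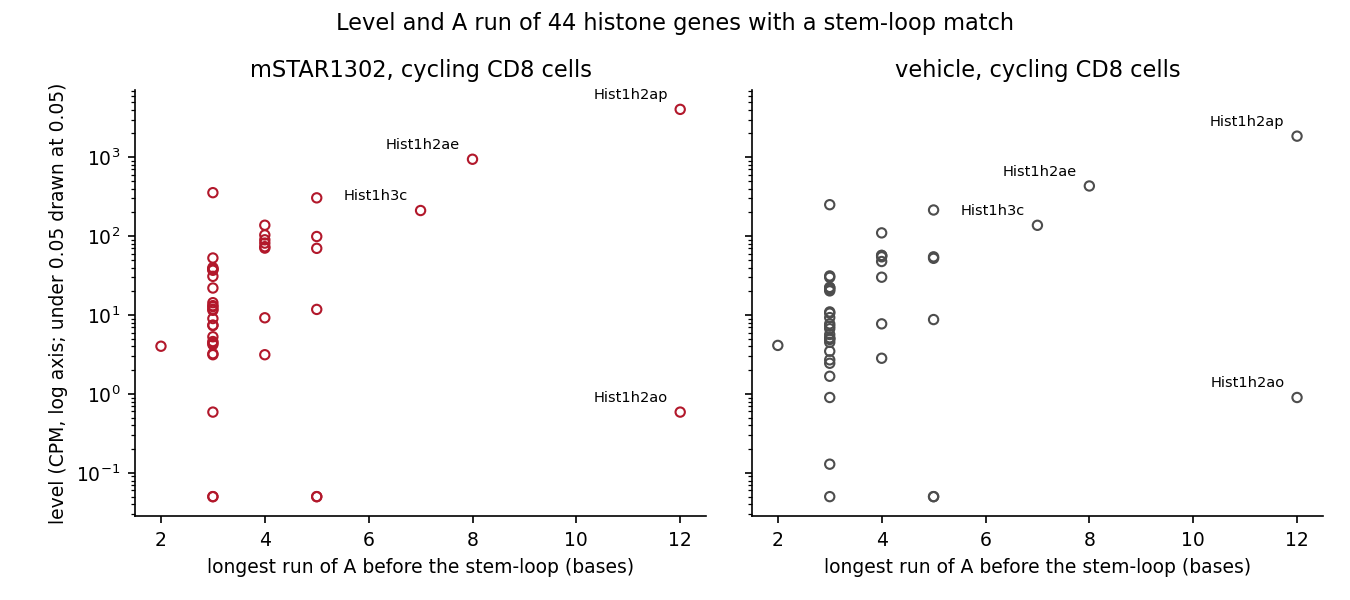
Longest run of A in the 30 bases before the stem-loop (horizontal axis, bases) against level in cycling CD8 cells (vertical log axis, CPM) for the 44 members with a stem-loop, mSTAR1302 in red and vehicle in grey. Hist1h2ap with a run of 12 stands highest, and Hist1h2ao with the same run lies near the bottom.

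Genes that process histone mRNA and place histones had smaller median ratios between the libraries than the histone genes, all at full depth. Of 13 measured genes of histone mRNA transcription and processing, 0 were 2-fold apart in cycling CD8 cells and the median log2 ratio was 0.05. Over all genes of this gate 1.26% were called higher and 5.8% lower, so 0 calls among so few genes lies near those shares. Slbp had 163 CPM for mSTAR1302 and 135 CPM for vehicle, a ratio of 1.21 (1.12 to 1.304), and Npat, which activates histone gene transcription, had 36.4 and 30.0 CPM. Casp8ap2, a protein of the histone locus body, had 87.4 and 62.4 CPM, and Eri1, an exonuclease that trims histone mRNA ends, 90.9 and 67.5 CPM. Lsm10, of the U7 particle that cuts histone pre-mRNA, had 9.23 and 14.7 CPM, and Cpsf2, of the cleavage complex, 41.1 and 51.3 CPM. Of 18 histone chaperones 0 were 2-fold apart, with a median of 0.11. Asf1b, which hands over H3 and H4 at the fork, had 87.9 CPM for mSTAR1302 and 63.4 CPM for vehicle, and Daxx had 26.8 and 18.4 CPM. Hjurp, the chaperone of the centromeric H3, had 96.4 and 74.1 CPM, and Rbbp7, a histone-binding subunit of several chromatin complexes, 145 and 180.2 CPM.

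Replacement histones are not tied to S phase and are made from polyadenylated mRNA. They summed to 5612 CPM in mSTAR1302 and 5563 CPM in vehicle cycling CD8 cells, a ratio of 1.01 (0.996 to 1.02), and 0 of 9 were 2-fold apart. H1f0, a linker histone of resting cells, had 24.8 CPM for mSTAR1302 and 47.8 CPM for vehicle, H2afy, a macroH2A gene, had 407 and 294 CPM, H2afj had 291 and 214 CPM, and the centromeric Cenpa had 201 and 267 CPM. H2afz had 1277 and 1443 CPM. Among S phase genes, 1 of 30 was 2-fold higher, the origin licensing gene Cdc6 at 31.3 CPM for mSTAR1302 and 13.9 CPM for vehicle. For this and the other lists here, the shares over all genes were 1.26% called higher and 5.8% called lower. The S phase list had a median of 0.35, a summed ratio of 1.25 and 27 of 30 genes above 0, with Clspn at 141 and 79.4 CPM, Ccne2 at 18.2 and 10.1 CPM and the licensing gene Cdt1 at 54.3 and 32.1 CPM. Among mitosis genes 0 of 27 were 2-fold apart, the median was 0.13 and the summed ratio 1.09. The cytokinesis gene Kif23 had 94.0 CPM for mSTAR1302 and 65.3 CPM for vehicle, and the mitotic kinase gene Plk1 had 21.4 and 29.4 CPM. The proliferation marker Mki67, itself used for the cycling gate, had 538 and 399 CPM. At full depth, the summed histone ratio of 1.88 in this gate was larger than that of any of the 5 lists above. That difference was not tested. In the thinned and regated cells the summed histone ratio was 1.29 (1.25 to 1.34), near the full-depth 1.25 of the S phase list. No thinned values are given for the 5 lists, so whether the difference holds at equal depth was not tested.

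Promoters of the members were compared with those of all genes because so many members moved together with the cycling gate. RefSeq promoters of 300 bases on GRCm38.p6 were matched for 62 of 67 members. The CCAAT box, searched as CCAAT on both strands, was in 53 of 62 (85.5%) against 37.9% of 27025 promoters. All H1, H2A, H2B and H3 promoters matched held it, and 3 of 12 H4 promoters did. TATAAA on either strand was in 35 (56.5%) against 14.2% of promoters, and the octamer ATTTGCAT was in 13 (20.97%), 7 of H2A and 6 of H2B genes, against 1.75% of promoters. Some H2A and H2B genes lie close together on opposite strands, such as Hist1h2ae on the minus strand and Hist1h2bg on the plus strand. A site between such a pair can count for both promoters, so these are not all separate sites. How often that happened was not tested. A stretch of Hist1h1b shows the paired CCAAT boxes of a linker gene, and that of Hist1h2bm shows the octamer of an H2B gene, with matches on either strand in capitals. A match is a description of these letters and not a bound site.
Hist1h1b, chr13:21780626-21780745, minus strand: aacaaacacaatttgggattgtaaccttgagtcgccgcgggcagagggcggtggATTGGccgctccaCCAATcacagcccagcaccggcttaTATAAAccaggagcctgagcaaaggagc
Hist1h2bm, chr13:21721924-21722043, plus strand: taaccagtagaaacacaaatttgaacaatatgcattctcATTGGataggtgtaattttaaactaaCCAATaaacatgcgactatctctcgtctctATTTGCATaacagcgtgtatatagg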

How the data were processed

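The authors deposited unfiltered counts, each a whole number of UMIs for 1 gene in 1 droplet. The mSTAR1302 matrix lists 1728776 barcodes and sums to 96486469 UMIs, and the vehicle matrix lists 1910622 and sums to 110026997. Cell Ranger made them, as version 4 per the file headers and version 6.0.1 per the submitters' processing notes, so the version is uncertain. The genome in those notes is mm10, with an annotation release not given in the sources used here, and FastQC, MultiQC 1.9 and Seurat are named too. Per the labels' protocols, sequencing on a NovaSeq reached at least 50000 reads per cell.

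Barcodes with at least 1000 UMIs, 500 genes and at most 10% mitochondrial UMIs were kept, 9155 of 11476 and 7615 of 9621 past the UMI limit. Doublets were not removed. T cells of the CD8 gate held Cd8a or Cd8b1 (1 UMI or more) and no Cd4, and those of the CD4 gates held Cd4 and neither Cd8 gene. Cells with both (843 and 1302), with neither (648 and 980) and outside the T cell gate (437 and 886) entered no gate. Each gate's UMIs were added up per gene, divided by the gate's total and given as CPM, which for 3' UMIs needs no gene length, although priming may differ between genes. Log2 ratios used a pseudocount of 1 CPM, and the ratios printed with intervals used none. Levels have exact Poisson intervals, ratios conditional binomial ones and shares Clopper-Pearson ones, all at 95%. Thinning to 3000 UMIs left out shallower cells. Members named in full were the 16 highest by mean CPM over the 12 gate and library combinations, and those with at least 20 UMIs and 2-fold apart in CD8 cells. From each list of other genes at most 4 were named, by the size of their log2 ratio in cycling CD8 cells, besides Slbp, Npat, H2afz and Mki67. The members and all lists were chosen with earlier results of these data known. The interval code was tested on simulated data. Alternatives varied scaling, cell weights, thinning, the gates, free RNA and level filters. Tables were handled with pandas 2.3.3 and NumPy 2.4.6 in Python 3.11.15, intervals came from SciPy 1.17.1 and plots from matplotlib 3.10.9.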

Additional observations from a re-analysis of the deposited data

Results flagged for a closer look

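Members that went opposite ways in CD8 cells and CD4 cells with Foxp3, both cycling, were Hist1h1b, Hist1h1c, Hist1h3c and Hist2h2ac, by intervals of the ratio that exclude 1 in each gate. The log2 ratio of mSTAR1302 over vehicle was 0.63 for Hist1h1b in CD8 cells and -0.28 in CD4 cells with Foxp3. For Hist1h1c it was 0.32 in CD8 cells and -0.42 in CD4 cells with Foxp3. For Hist1h3c it was 0.62 and -0.57, and for the H2A gene Hist2h2ac 0.84 and -0.63. In CD8 cells thinned to 3000 UMIs the intervals of all 4 ratios included 1, at 1.08 for Hist1h1b (0.964 to 1.21), 0.842 for Hist1h1c (0.665 to 1.07), 1.15 for Hist1h3c (0.938 to 1.42) and 1.33 for Hist2h2ac (0.977 to 1.85). The mSTAR1302 side of the CD4 gate rests on 32 cells, and the difference between the gates was not tested.

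Histone mRNA also appeared in droplets and cells that enter no comparison. Droplets of 10 to 100 UMIs held it at 1831 CPM for mSTAR1302 and 1569 CPM for vehicle. Cycling T cells outside the CD4 and CD8 gates, with both or neither marker, held it at 5544 CPM in 175 mSTAR1302 cells and 5259 CPM in 507 vehicle cells. Non-cycling cells outside the T cell gate held it at 899 CPM in 410 mSTAR1302 cells and 449 CPM in 800 vehicle cells.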

How the results depend on the processing

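Values are log2 ratios of the summed histone level, mSTAR1302 over vehicle, unless said otherwise. In cycling CD8 cells (0.91) all 20 alternatives lay above 0, from 0.37 to 1.08. Scaling by median ratios gave 1.01 in cycling CD8, 0.71 in cycling CD4 without Foxp3, 0.13 in cycling CD4 with Foxp3, 0.17 in non-cycling CD8 and 0.32 in non-cycling CD4 without Foxp3. Weighting cells equally gave 0.99, 0.64 and 0.29 in the 3 cycling gates and turned non-cycling CD4 without Foxp3 to -0.0035. Thinning gave 0.37, 0.35 and 0.14 in the cycling gates and 0.17, 0.50 and -0.15 in the non-cycling gates. A mitochondrial limit of 5% gave 0.96, 0.61 and -0.045 in the cycling gates, leaving out high-UMI cells 0.95, 0.0498 and 0.13, and leaving out Hist1h2ap 0.72, 0.19 and -0.078, with -0.076 in non-cycling CD8. Cycling at 2 UMIs gave 0.88 in CD8, and at 5 UMIs 0.88 in CD8, -0.058 in CD4 with Foxp3 and 0.087 in non-cycling CD8. Non-cycling at 0 UMIs gave 0.062 in CD8 and 0.52 in CD4 with Foxp3. For cycling CD4 without Foxp3, T cells at 1 Cd3 UMI gave 0.71 and at 4 gave 0.54. CD8 cells without Foxp3 gave 0.99. Subtracting 5% free RNA gave -0.027 in non-cycling CD8, and subtracting 10% gave 0.93 in cycling and -0.10 in non-cycling CD8. Of settings added after the data were seen, leaving out the 10% of cells highest in histone UMIs gave 1.08 in CD8, cycling at 300 or more UMIs of the gate genes in 1000000 gave 0.52, 0.61 and -0.14 in the cycling gates, and leaving out cells with markers of other cells gave 0.69 in CD8. The causes of these shifts were not tested.

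Members at least 2-fold higher in cycling CD8 (5) numbered 3 of 27 at 20 CPM (1.204% of all genes), 8 of 61 without a level filter (0.997%), 1 of 37 without cells with markers of other cells (0.925%) and 2 of 43 in thinned cells (3.12%). In cycling CD4 without Foxp3, 9 of 57 were higher and 5 lower without a filter (11.2% and 26.4% of all genes), 3 of 47 were lower at 5 CPM (18.6%), and 5 of 45 were higher and 7 lower when thinned (14.3% and 18.97%). In cycling CD4 with Foxp3, 0 of 29 were higher at 20 CPM (0.796%) and 1 of 42 without cells with markers of other cells (1.697%), while 2 of 49 were lower at 5 CPM (6.83%) and 7 of 62 without a filter (11.9%). Thinned cells of that gate gave 7 of 37 higher and 11 lower (23.9% and 37.4%), but rest on 6 mSTAR1302 cells with 168 histone UMIs, where 1 UMI is 55.6 CPM. Without a filter, 1 of 59 was lower in non-cycling CD4 without Foxp3 (10.02%), and 5 of 60 were higher and 3 lower in non-cycling CD4 with Foxp3 (3.41% and 10.7%). The share of CD8 cells called cycling, 12.3% for mSTAR1302 and 14.5% for vehicle, differed by -2.13 points as given, by 2.38 points in thinned cells, by -5.52 points at 2 UMIs and by -0.0525 points at 5 UMIs. For CD4 cells without Foxp3 it differed by -3.24 points when thinned. No paired analysis was possible because each treatment has 1 library.

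With 1 library for each treatment, intervals cover counting error and no spread between mice. The CD4 gate with Foxp3 holds 32 cycling mSTAR1302 cells, so members under about 10 CPM rest on a few UMIs there.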
